A study of Mus musculus with 20 samples.

Results

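Cytosolic ribosomal protein genes were followed through the bone marrow RNA of mice transplanted with retrovirus-induced T lineage acute lymphoblastic leukemias (T-ALLs). The set held 55 protein-coding genes of the large (*Rpl*) and small (*Rps*) subunit, taken from a list of symbols and matched through their Ensembl identifiers. They are 55 of the 39017 genes in the table, and processed pseudogenes were left out of the set. A further 26 cytosolic ribosomal protein genes in the table were not on the list and serve as a companion group.

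The leukemias had been raised by insertional mutagenesis (IM) with the retrovirus MOL4070LTR in C57Bl/6 x 129Sv/Jae F1 mice and were then transplanted into recipient mice. Each leukemia descends from the disease of 1 donor mouse, so the libraries of a leukemia are not independent tumors. RNA came from whole marrow, which also holds cells of the recipient. Each of 10 leukemias gave 2 libraries, 1 whose column name carries the letters VEH and 1 with DEX. What the letters stand for is not given in the sources used here, so the columns are compared by their letters and the leukemias by name. The tests used 9 leukemias (JW14, JW81, 8633, 5C, 78A, 2M, 20M, 73M and 73A), and leukemia 4638, which the paper does not name, is given by its values only.

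Ribosomal proteins assemble with ribosomal RNA in the nucleolus into the subunits that translate every cytosolic message, and proteins made in excess of their partners are degraded. Their messages start with a run of pyrimidines behind an initial C, the 5′ terminal oligopyrimidine (TOP) motif, through which the kinase complex mTORC1 sets how strongly they are translated, and MYC raises transcription of many of the genes. In T-ALL, mutation of ribosomal protein genes including *RPL5*, *RPL10* and *RPL22* is known from human patients. The mouse genome holds many processed pseudogenes of this family, that is, intronless copies of the messages, which makes counting of short reads uncertain for several members.

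The 18 libraries of the 9 leukemias held 8226528 to 201222288 expected counts (median 24451898). A floor of 3 counts corresponded to 0.0149 CPM (counts scaled to a common library total) in the deepest and 0.365 CPM in the shallowest library, and it covers counting error only. The members took 2.46% of all counts in the lowest library (20M DEX) and 5.01% in the highest (JW14 DEX). The T lineage marker *Lck* was present in every library (115 to 325 FPKM, fragments per kilobase of exon, scaled to the library total). Of the B lineage list, *Pax5* was under 3 counts in 12 of 18 libraries. *Cd79a* of the same list was under 3 counts in 0 libraries (0.092 to 8.53 FPKM), and *Cd79b* in 1 (up to 13.3 FPKM). Neutrophil markers were present as well, with *S100a9* at 9.55 to 2105 FPKM. In 5 libraries (JW81 DEX, JW14 DEX, 73M DEX, 20M DEX and 5C VEH) ribosomal RNA genes held over 1 CPM, and these are called rRNA-carrying below. Whether the 2 libraries of a leukemia came from different recipients is not stated, so the p-values measure the spread between these libraries, which may be technical.

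The starts of the messages are shown first because the TOP motif defines the group at the RNA level. RefSeq promoters (GRCm38.p6) were matched for 45 of the 55 members, with 52 start sites in windows of 300 bases from 250 before to 50 after the start. An initial C with 4 pyrimidines behind it stood exactly at the annotated start in 10 of 52 member windows (19.2%) and in 823 of 32851 windows of all genes (2.51%). The annotated start decides this count, and a start placed some bases away removes the match. The 10 windows that match are printed from 30 bases before to 25 bases from the start, with the pyrimidine run at the start in capitals. They run from 5 pyrimidines in *Rplp2* to 13 in *Rpl15*.
Rps6, chr4:86857343-86857397, minus strand: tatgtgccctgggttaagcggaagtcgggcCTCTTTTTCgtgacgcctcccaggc
Rps18, chr17:33955641-33955695, minus strand: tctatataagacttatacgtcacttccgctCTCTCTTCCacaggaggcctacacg
Rps10, chr17:27635220-27635274, minus strand: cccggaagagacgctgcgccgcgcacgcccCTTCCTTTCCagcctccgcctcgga
Rps27, chr3:90213624-90213678, minus strand: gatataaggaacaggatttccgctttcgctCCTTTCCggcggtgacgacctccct
Rpl14, chr9:120571487-120571541, plus strand: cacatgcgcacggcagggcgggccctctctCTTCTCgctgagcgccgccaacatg
Rpl15, chr14:18270962-18271016, minus strand: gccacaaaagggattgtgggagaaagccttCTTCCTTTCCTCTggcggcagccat
Rpl28, chr7:4792935-4792989, plus strand: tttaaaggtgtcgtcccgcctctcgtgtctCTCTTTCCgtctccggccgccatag
Rpl35, chr2:39005107-39005161, minus strand: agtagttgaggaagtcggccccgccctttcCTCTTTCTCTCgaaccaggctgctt
Rpl38, chr11:114668550-114668604, plus strand: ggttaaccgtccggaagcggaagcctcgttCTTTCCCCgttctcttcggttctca
Rplp2, chr7:141447621-141447675, plus strand: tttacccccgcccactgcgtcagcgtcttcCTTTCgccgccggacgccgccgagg

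Other promoter words were counted in the same windows of 300 bases. CCGGAAG, a core of ETS family sites, occurred on either strand in 17 of 52 member windows (32.7%) and in 8.86% of all windows. CACGTG, the palindromic E-box that MYC can bind, was in 8 of 52 (15.4%, in 6 genes: *Rpl13a*, *Rpl14*, *Rpl19*, *Rpl23*, *Rpl34* and *Rps19*) and in 7.15% of all. TATAAA on the sense strand was in 4 of 52 (7.69%, *Rpl22l1*, *Rplp0*, *Rps2* and *Rps28*) and in 8.32% of all. These are matches of letters in a window and not sites of binding.

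Where the reads of a member were counted decided what its row could show. A search with the members' messages found 429 copies in the annotation, at 90% identity or more over at least 60% of the copy, and 28 of them held a mean of 1000 counts or more. Copies with a mean of 1 count or more were found for 46 members. The member's own row held at least 90% of the counts of gene and copies together in 32 members, 50% to 90% in 10 and under 50% in 13, among them 7 under 10%. *Rps12*, a small subunit protein, and *Rps27*, a zinc-finger protein of the small subunit, were listed at 0 in all 18 libraries. Their reads lay on *Rps12-ps3* (chr19:59322290-59322783, plus strand, mean 29862 counts), identical to *Rps12* over all 399 coding bases, and on *Rps27rt* (mean 16349 counts). *Rps6*, the substrate of S6 kinase, kept 0.862% of its counts, with the rest mainly on *Rps6-ps4* (chr2:75191073-75191822, minus strand), identical over 750 coding bases. *Rpl12*, a protein of the stalk base, kept 5.41%, and its identical copy *Gm10275* (chr10:29698746-29699380, minus strand, 498 coding bases) held a mean of 33788 counts. *Rpl5*, which carries 5S ribosomal RNA with *Rpl11*, kept 7.44%. In 11 of the 13 members under 50% the copy with most counts was 100% identical over the aligned stretch, so that no read inside it can tell the gene from the copy. For this reason each member is also given as a sum of its own row and its copies ("summed"), and both values are printed where they differ.

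The share on the own row was nearly the same in all leukemias for most members, with a range over 18 libraries under 10 percentage points in 44 of 55, and over 20 points in 4. The widest was *Rpl34*, a large subunit protein, with 2.09% to 98.9%. The 2 libraries of JW81 together had 2.35% on *Rpl34*, 20M, 2M, 5C, 8633 and JW14 lay between 48.3% and 50.5%, and 73A, 73M and 78A lay between 95.7% and 98.5%. Leukemia 4638 had 88.4%. The remainder lay on *Rpl34-ps1* (chr6:71124610-71124963, plus strand), which matches the coding sequence at 352 of 354 bases. The differences are T132C and C318G, counted from 1 at the A of the start codon with the base of *Rpl34* first. The stretches around both positions follow from GENCODE M21, with the differing base in capitals, because reads over these bases are what can separate gene and copy.
Rpl34, coding bases 120 to 144: agcacctaaatcTgcatgtggcgtg
Rpl34-ps1, the same stretch: agcacctaaatcCgcatgtggcgtg
Rpl34, coding bases 306 to 330: cgttgtgaaagtCttgaaggcacaa
Rpl34-ps1, the same stretch: cgttgtgaaagtGttgaaggcacaa

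*Rps18*, at the head of the small subunit, had 66.7% of its counts on the own row in 20M, 65.5% in 2M and 82.2% in 4638, and 99.8% to 99.9% in the other 7 leukemias. Its copy with most counts is *Gm10260* (chr13:97760072-97760632, minus strand), with 455 of 459 coding bases identical and the differences T186C, A337C, G371A and G431A. *Rplp0*, which anchors the ribosomal stalk, had 60.7% on the own row in JW81 and 79.9% to 81.0% in the other 8, and its copy *Gm8730* (chr8:102864845-102865798, minus strand) differs at 12 of 954 coding bases. *Rpl3*, at the peptidyl transferase center, ranged from 30.6% to 62.9%, with 78A highest (62.8%). For *Rpl34*, *Rps18* and *Rplp0* the leukemias thus fell into separate levels, and the lowest and highest single libraries (2.09% and 98.9%, 64.7% and 99.97%, 60.4% and 81.2%) lay within 1 percentage point of the lowest and highest leukemias. The first of the differing stretches of *Rps18* is printed as the base that lies nearest to the start codon.
Rps18, coding bases 174 to 198: actcacggaggaTgaggtggagcga
Gm10260, the same stretch: actcacggaggaCgaggtggagcga

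**Figure D1:**
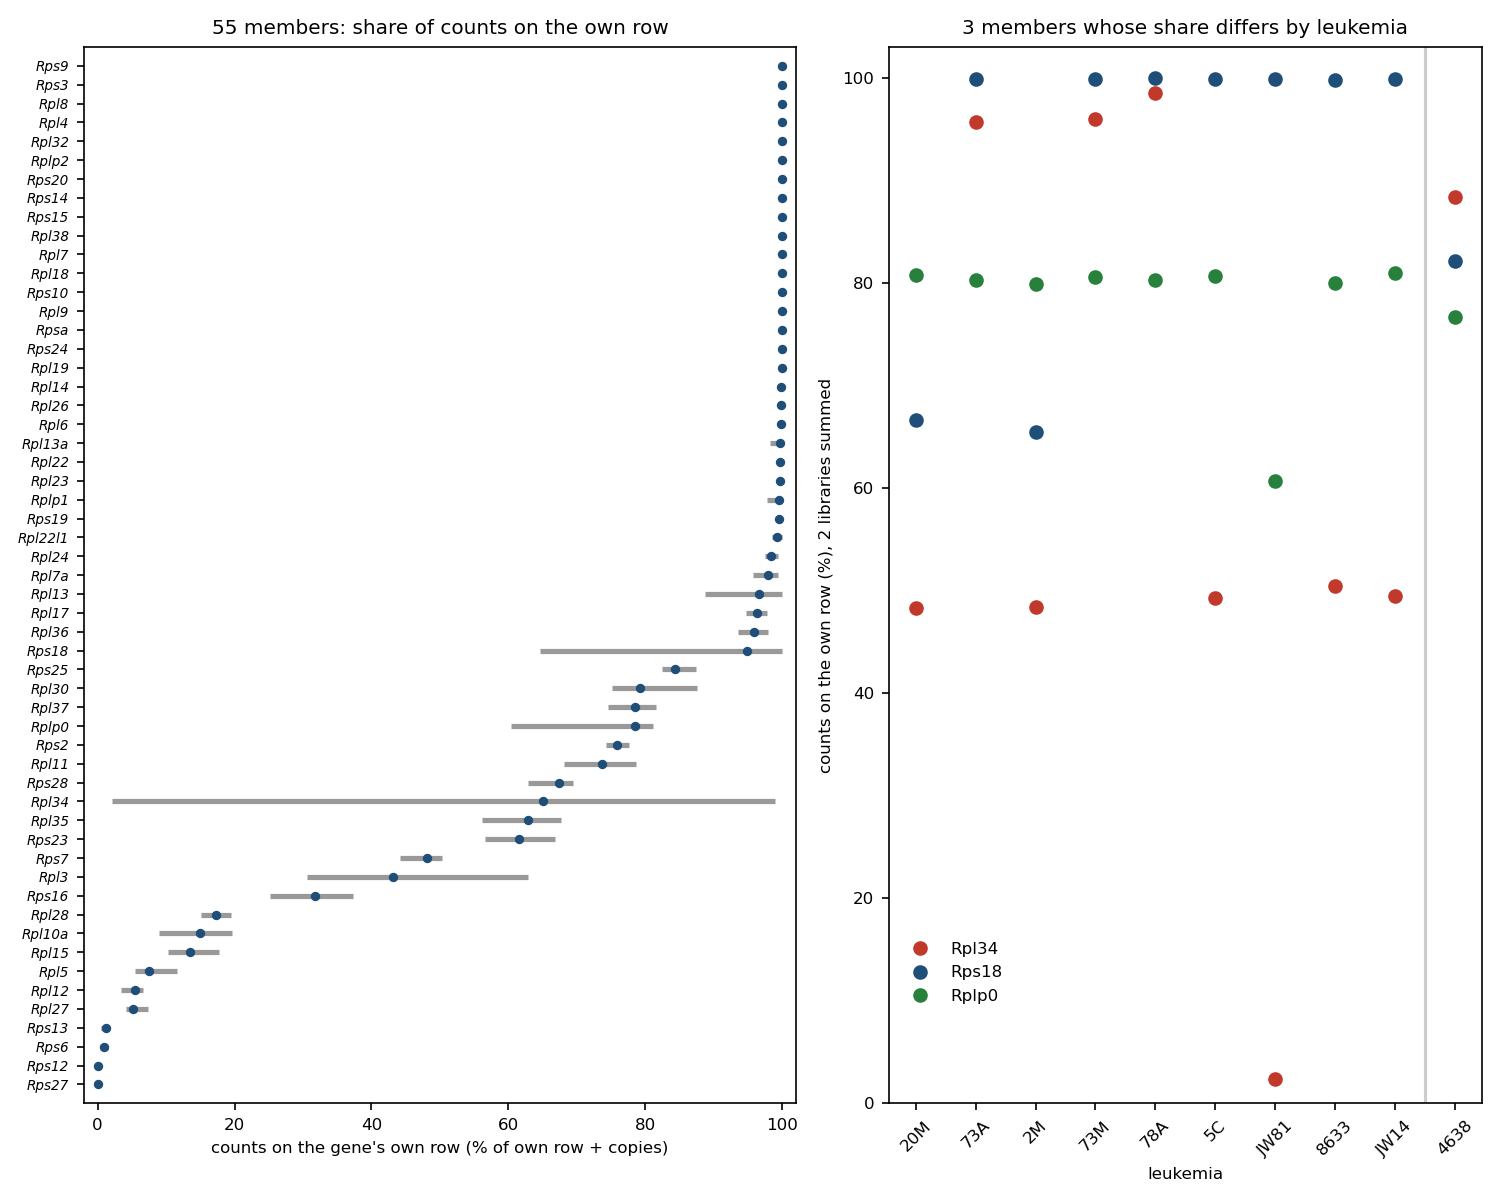
Left, share of the counts of each of the 55 members (vertical axis) that lies on its own row, in percent of own row and near-identical copies (horizontal axis). Points are the share in the pooled counts of 18 libraries, in which deeper libraries weigh more, and bars run from the lowest to the highest library. Right, the same share in each leukemia (2 libraries summed) for *Rpl34*, *Rps18* and *Rplp0*, with 4638 apart; *Rpl34* stands at 2.35% in JW81 and at 98.5% in 78A.

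Levels between members were compared as summed CPM per kilobase of the principal message, as mean ± SD over 9 leukemias. The highest were *Rps12* (1967 ± 659), *Rpl32* (1844 ± 512), *Rps6* (1827 ± 469), *Rplp0* (1806 ± 603) and *Rplp1* (1598 ± 516). These 5 differ from each other by less than their SD over leukemias. The lowest was *Rpl22l1*, the paralog of *Rpl22*, with 96.0 ± 19.4, while *Rpl22* itself stood at 640 ± 145. As FPKM on the rows alone, which also divides by the merged exons in place of the principal message, the order was different, with *Rplp1* (1588 FPKM), *Rplp0* (1150 FPKM) and *Rpl32* (990 FPKM) highest and *Rps12*, *Rps27* (both listed at 0) and *Rps13* (2.60 FPKM, a small subunit protein) lowest.

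The ribosomal protein score, the mean over the 55 rows of log2(FPKM + 1), separated the leukemias. Its mean of both libraries was 6.98 in 20M, 7.12 in 73A, 7.13 in 2M, 7.19 in 73M, 7.42 in 78A, 7.61 in 5C, 7.65 in JW81, 7.84 in 8633 and 7.92 in JW14. Over the 9 leukemias it was 7.43 ± 0.34 (SD), a range of 0.93, against a pooled SD of 0.103 between the 2 libraries of a leukemia. Neighbors such as 73A and 2M, or 5C and JW81, differ by less than that. With copies summed the score ran from 8.10 to 9.04 in the same order. The members' share of counts with copies followed the same range, 3.37% to 6.75%. Scaled as TPM, where length-corrected counts add to the same sum in every library, 20M stayed lowest and 8633 came above JW14 as highest, and the 4 leukemias 20M, 2M, 73A and 73M stayed below the other 5. The libraries of 4638 had scores of 7.16 (VEH) and 6.78 (DEX), a difference of -0.37, beside neutrophil marker scores (mean log2(FPKM + 1)) of 8.47 and 7.99, T lineage scores of 3.71 and 3.36 and erythroid scores of 4.02 and 4.80. The DEX minus VEH differences of the other 9 leukemias were -0.17 to 0.30. In whole marrow, fewer leukemia cells and less of a message per cell cannot be told apart.

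Marker levels of other cells ran against the score across leukemias, and their part in it was not tested. The mean log2(FPKM + 1) of 10 neutrophil genes was 1.32 in JW14 and 4.11 in 8633, the leukemias with the highest scores, and 5.07 to 6.999 in the other 7, with 73A highest. Summed, the 10 genes had 20.3 to 44.0 FPKM in the libraries of JW14, 412 to 644 in those of 8633 and 783 to 4627 in the others, and *Elane* and *Cebpe* were each under 3 counts in 2 libraries and *Mmp8* in 1. Across the 9 leukemias its Pearson r with the score was -0.79 (Spearman rho -0.92), and without JW14 and 8633 r was -0.63. The points share the libraries and their scaling to total counts. The 6 leukemias with neutrophil scores between 5.07 and 5.77 had ribosomal scores from 6.98 to 7.65. The T lineage list had r = -0.75 (rho -0.75), the erythroid list r = -0.44, the B lineage list r = -0.50 (rho -0.77), the macrophage list r = -0.46 and total counts r = -0.38, all over 9 leukemias and given as descriptions. Without 73A and 73M, which were farthest from the median in these last 4, r was -0.13 for the erythroid, -0.82 for the B lineage and -0.09 for the macrophage list and -0.58 for total counts.

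**Figure D2:**
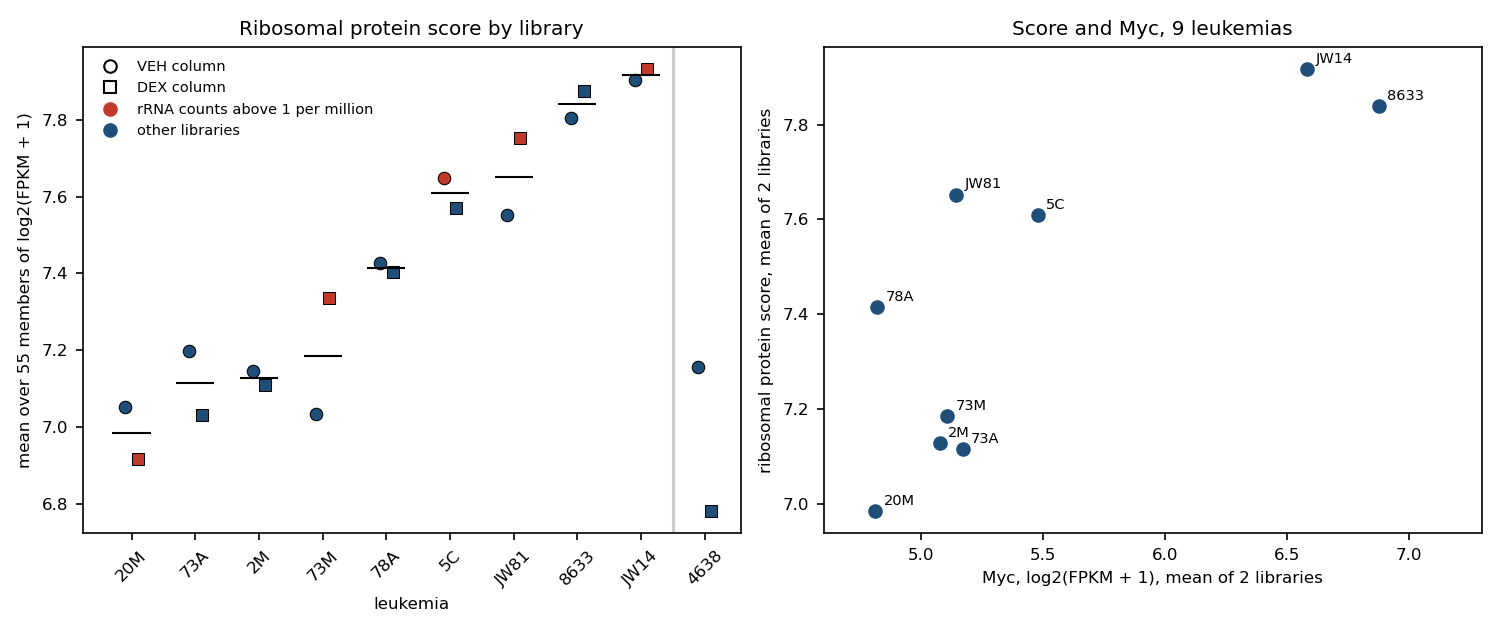
Left, ribosomal protein score (mean over 55 members of log2(FPKM + 1)) in each library by leukemia, with circles for VEH, squares for DEX, red for rRNA-carrying libraries and lines for the mean of both. Right, the mean score of each leukemia against *Myc* as log2(FPKM + 1); JW14 and 8633 stand alone above 6.5 on the *Myc* axis.

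Nearly all members differed between leukemias, as did most genes. The edgeR quasi-likelihood F test over the 9 leukemias called all 55 members on summed counts at an adjusted p of 0.05, beside 82.6% of all 11266 genes tested, and 52 of 53 on the rows, beside 82.5%. What set the members apart from this background was described by their direction. Against the mean of the other 8 leukemias, 54 of 55 summed members were higher in JW14 and 0 lower (all genes 29.1% higher and 26.7% lower). In 8633, 49 were higher and 0 lower (27.8% and 25%), and in JW81 49 and 0 (20.1% and 18.1%). In 20M, 0 were higher and 50 lower (25.3% and 22.1%), in 73A 0 and 53 (19.3% and 14.5%), in 73M 0 and 35 (21.6% and 16.1%), and in 2M 2 and 40 (21.3% and 14.3%). In 5C, 20 were higher and 2 lower (24.7% and 24.3%), and in 78A 2 and 3 (17.1% and 9.68%). The members' median log2 difference was 0.62 in JW14, 0.51 in 8633, 0.43 in JW81, 0.25 in 5C, -0.10 in 78A, -0.33 in 73M, -0.37 in 2M, -0.48 in 73A and -0.52 in 20M, where the median of all genes lay between -0.01 and 0.03. With an offset that removes the trend of each library with exon length, the medians of all genes on the rows moved to between -0.19 and 0.22 and those of the members to between -0.61 and 0.81, with the same leukemias above and below 0. On the rows, where 18% of all genes were lower in JW81, the only member called lower there was *Rpl34*, with a log2 difference of -4.20 and 2.35% of its counts on the own row.

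Members with known roles followed this order with different spans. The largest F statistics on summed counts were those of *Rps12* (51.3, adjusted p = 4.66e-07 by edgeR) and of *Rpsa*, the laminin receptor protein of the small subunit (43.95, adjusted p = 9.51e-07 by edgeR). On the rows, *Rpl34* (143.5) and *Rps18* (53.6) came first. The level of *Rpsa* was 1485 summed CPM in the lowest library (20M DEX), 2040 at the median and 3881 in the highest (8633 DEX), and its log2 difference from the other leukemias was 0.87 ± 0.08 (SE) in 8633 and -0.66 ± 0.09 in 20M. *Rpl8*, next to the peptidyl transferase center, had the widest range of the summed members, 1.67 on the log2 scale. It ran from 684 CPM (20M VEH) through a median of 1211 to 2254 CPM (8633 DEX), and the leukemias 8633 (2192 CPM) and JW14 (2161 CPM) lay well above the next, 78A (1376 CPM). The other wide summed ranges were those of *Rpl37*, *Rpl30*, *Rpl36* and *Rps12* (1.29 to 1.49), and the narrowest was that of *Rpl7* (0.67), beside a median of 0.968 over the members. On the rows the widest were *Rpl34* (4.61), *Rps6* (1.91), *Rps18* (1.76), *Rpl8* (1.67) and *Rpl37* (1.56), of which the first 3 carry the copies described above.

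For the stalk, *Rplp0* ran from 1500 through 2270 to 3764 summed CPM, *Rplp1* from 496 through 731 to 1285, and *Rplp2* from 323 through 475 to 756, and all 3 were highest in JW14. *Rpl5* ran from 1126 through 1454 to 2288 CPM and *Rpl11* from 466 through 659 to 1119 CPM. The proteins of both bind the p53 regulator MDM2 when ribosome assembly is disturbed. *Rpl5* was highest in JW14 (log2 difference 0.57 ± 0.08, adjusted p = 9.25e-05 by edgeR), and *Rpl11* in JW81 (0.73 ± 0.11, adjusted p = 0.000227 by edgeR). *Rps19* and *Rps14*, whose human counterparts are lost in Diamond-Blackfan anemia and the 5q- syndrome, ran from 371 through 551 to 841 CPM and from 664 through 813 to 1165 CPM. Both were lowest in 73A and highest in JW14. *Rps6* ran from 1116 through 1450 to 2333 summed CPM, with 20M lowest and JW14 highest.

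**Figure D3:**
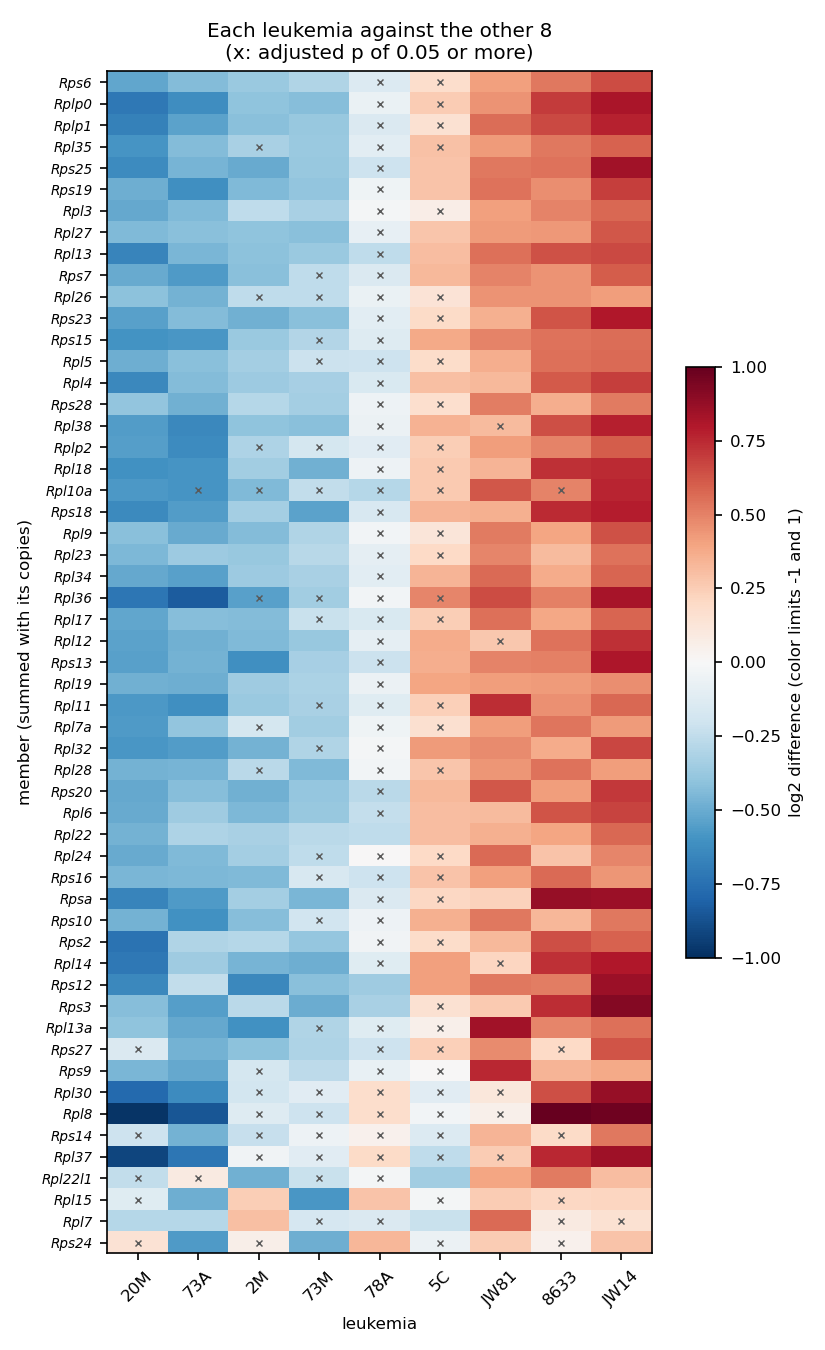
Log2 difference of each leukemia (columns) from the mean of the other 8 for the 55 summed members (rows, ordered by their correlation with the mean of the other members), in blue where lower and red where higher, with a cross at an adjusted p of 0.05 or more. Colors stop at -1 and 1. The columns turn from blue in 20M to red in JW14 in nearly all rows, and *Rps24*, *Rpl7* and *Rpl15* at the bottom break the pattern.

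The members moved together across leukemias with few exceptions. The lowest correlations of a summed member with the mean of the others, over 9 leukemias, were those of *Rps24* (0.41), *Rpl7* (0.43), *Rpl15* (0.51) and *Rpl22l1* (0.62), and the next was *Rpl37* (0.82). These describe points that share libraries and scaling. *Rps24* and *Rpl15* both lie on chromosome 14, and the departures of the members on chromosomes 14 and 15 were set beside those of the other genes there.

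On chromosome 14, 411 other tested genes had a median shift of 0.35 in 20M, 0.33 in 2M and 0.32 in 78A from their mean over leukemias, and of -0.24 to -0.07 in the other 6. *Rps24*, a small subunit protein, and *Rpl15*, a large subunit protein, lay 0.34 to 0.59 above the median of all members in those 3 leukemias, and below it in the other 6. In 78A, where few members were called, *Rps24* had a summed log2 difference from the other leukemias of 0.33 ± 0.08 (adjusted p = 0.0109 by edgeR) and *Rpl15* of 0.28 ± 0.08 (adjusted p = 0.0218 by edgeR). These were the 2 members called higher there on summed counts. On the rows, *Rpl34* (1.21), *Rpl3* (0.63), *Rpl30* (0.33) and *Rps24* (0.33) were called higher in 78A. *Rpl15* was not called on its row (0.19 ± 0.10, adjusted p = 0.18 by edgeR). *Rps24* stood at 971 summed CPM in the lowest library (73M VEH), 1470 at the median and 1830 in the highest (78A DEX).

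On chromosome 15, 414 other genes had a median shift of 0.30 in 8633, 0.27 in JW14, 0.25 in 78A, 0.19 in 2M and 0.07 in 73M, and of -0.22 in 5C, -0.23 in JW81, -0.25 in 73A and -0.31 in 20M. *Rpl8*, *Rpl37* and *Rpl30*, all of the large subunit, departed from the members' median in the direction of these genes in all 9 leukemias. *Rpl8* lay 0.43 above it in 8633 and 0.41 below it in 20M (-0.41). *Rpl3*, further toward the distal end of the same chromosome, stayed between -0.16 and 0.10. Gene dosage was not measured here, and its part was not tested.

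**Figure D4:**
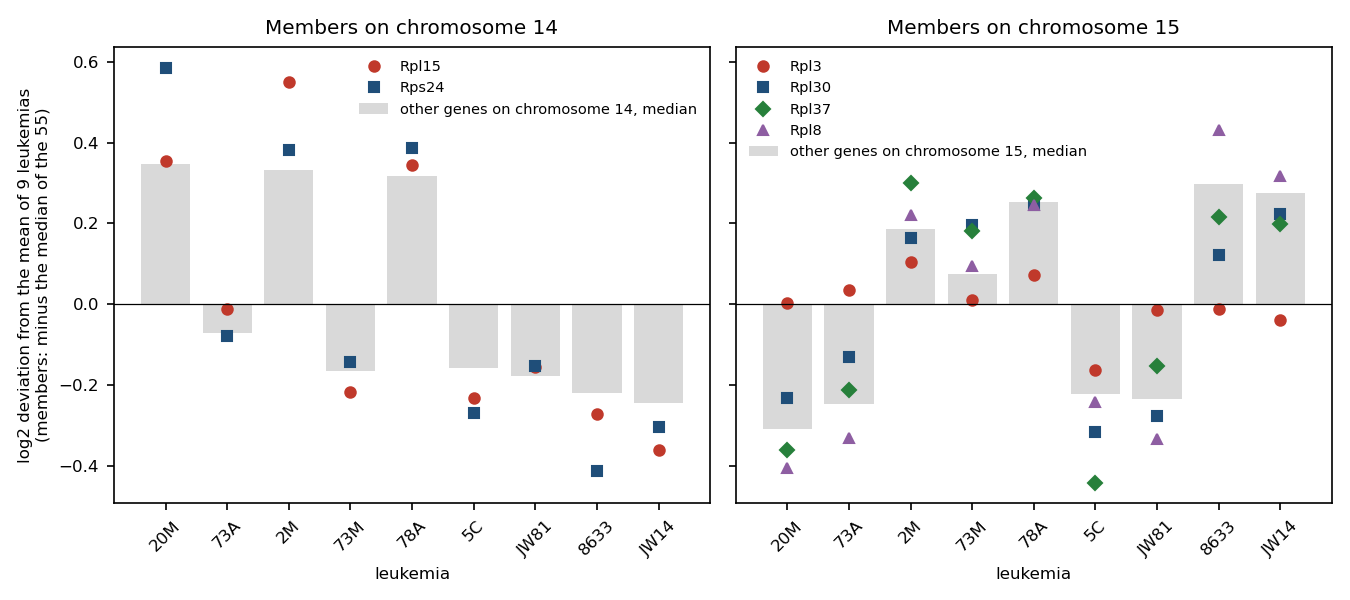
Log2 deviation from the mean of 9 leukemias, by leukemia. Points are the members on chromosome 14 (left) and chromosome 15 (right) after subtracting the median of the 55 members, and gray bars the median of the other tested genes of that chromosome; points and bars share their sign in all leukemias for *Rps24*, *Rpl15*, *Rpl8*, *Rpl37* and *Rpl30*, but not for *Rpl3*.

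*Myc*, which encodes a driver of ribosomal protein transcription, was 116.7 FPKM in 8633 and 95.5 FPKM in JW14, and 29.8 to 43.7 FPKM in the other 7 leukemias (means of 2 libraries). The score rose with it over 9 leukemias (r = 0.80, rho 0.73), but the relation was weaker without the 2 leukemias that stand apart. Without 8633 and JW14, r was 0.51 and rho 0.46. With FPKM scaled by TMM (trimmed mean of M-values), r was 0.81 and rho 0.85, and 0.57 and 0.71 without these 2. *Myc* itself was lower in the DEX than in the VEH library in 6 leukemias (20M, 2M, 73A, 73M, 78A and JW81, with 42.5 to 61.5 FPKM in VEH and 16.0 to 25.9 in DEX) and higher in 5C, 8633 and JW14 (40.4 to 111 FPKM in VEH and 47.0 to 123 in DEX). In the VEH columns alone r was 0.64, and -0.067 without 8633 and JW14. In the DEX columns alone r was 0.78, and 0.47 without them. By the exact permutation test over all pairings, adjusted over all genes, 22 of 53 members were correlated with *Myc* at 0.05, where 18.3% of 11338 genes were called in either direction, and the summed members gave 22 of 55 (18.3% of genes). In the VEH columns alone 0 members and 0 of 11338 genes passed, and in the DEX columns alone 12 members passed (19.1% of genes). The members' median r was 0.75 on the rows and on summed counts, where that of all genes was -0.11. Among the 7 leukemias without 8633 and JW14 the median was 0.49 (all genes -0.02), and 0 members passed, as did 0 of 11338 genes. At an unadjusted p of 0.05, 0 members passed there, with 5.01% of all genes positive at that level. The largest r on the rows were those of the small subunit genes *Rps3* (0.90) and *Rpsa* (0.90), then *Rpl27* (0.88), *Rplp0* (0.87) and *Rps23* (0.86). The smallest were *Rpl15* (-0.19), *Rpl3* (0.02), *Rps24* (0.08), *Rpl7* (0.16) and *Rpl34* (0.18). With copies summed, *Rpl3* came to 0.77, *Rpl34* to 0.64 and *Rpl15* to 0.24, whereas *Rps24* (0.08) and *Rpl7* (0.16) stayed low.

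*Rpl22* and *Rpl22l1* encode paralogs that can replace each other in the ribosome, and RPL22 is known to repress its paralog. *Rpl22* ran from 218 summed CPM (20M DEX) through a median of 271 to 416 (JW14 VEH), and *Rpl22l1* from 36.2 (2M VEH) through 53.4 to 70.04 (8633 VEH). *Rpl22* formed a lower group of 5 leukemias (227 to 260 CPM) and an upper group of 5C, 8633, JW14 and JW81 (356 to 409 CPM). Over the 9 leukemias their r was 0.59 (exact permutation p = 0.0948) and rho 0.65 (exact permutation p = 0.0666), and without 8633 and JW14 r was 0.34. Leukemia 5C went against the direction, with *Rpl22* higher than in the other leukemias (0.31 ± 0.08, adjusted p = 0.00862 by edgeR) and *Rpl22l1* lower (-0.35 ± 0.12, adjusted p = 0.028 by edgeR). Leaving out 1 leukemia at a time gave r of 0.50 to 0.82. The p was under 0.05 only without 5C (exact permutation p = 0.0177) and 0.0805 to 0.192 by the exact permutation test without each of the other 8, and since 5C is the leukemia that departs from the relation, its omission is no independent support. With all 9 leukemias, rho had an exact permutation p of 0.0214 in the DEX columns alone (0.336 in VEH) and of 0.0433 with TMM-scaled FPKM, while r passed in neither (exact permutation p = 0.0646 and 0.0629).

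Between the DEX and the VEH columns the members changed little. The score differed by 0.018 ± 0.154 (mean ± SD of DEX minus VEH, n = 9), higher in 4 leukemias and lower in 5. Its sign depended on the scaling, with -0.032 under TPM and 0.065 under TMM (trimmed mean of M-values) scaling, each higher in 3 leukemias and lower in 6. In the edgeR fit with leukemia as a block, 1 of 53 members was called at an adjusted p of 0.05 on the rows (13% of 11339 genes, 6.22% higher and 6.79% lower). On summed counts 0 of 55 were called (13.3% of 11266 genes, 6.34% higher and 6.93% lower), and the smallest adjusted p was 0.102. At an unadjusted p under 0.05 by edgeR stood 3 of the 55 summed members and 3594 of the 11266 genes. DESeq2 on the rows called *Rpl12* as well and no other member. The members' median log2 difference was 0.073 on the rows and 0.074 on summed counts, with 48 of 53 and 54 of 55 above 0, where all genes had medians of 0.0039 and 0.0035 with 50.9% and 50.8% above 0. In the 4 leukemias with no rRNA-carrying library 35 of 53 and 37 of 55 members were above 0, beside 51.8% of all genes on the rows and on summed counts.

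The member called was *Rpl12*, lower in the DEX column in 9 of 9 leukemias. On its own row it ran from 13.9 FPKM through a median of 17.3 to 24.6 in the VEH libraries and from 7.49 through 12.2 to 22.2 in the DEX libraries, so that the groups overlapped. Its log2 difference was -0.36 ± 0.10 (adjusted p = 0.0391 by edgeR). With a term for rRNA-carrying libraries the difference was -0.36 with an adjusted p of 0.102, and the call was also lost without 20M, 2M, 73A, 73M, 78A or JW14 (-0.38 to -0.29, adjusted p 0.0511 to 0.0885 by edgeR). The call held among the leukemias with no rRNA-carrying library (-0.49, adjusted p = 0.0367 by edgeR). With no filter on low values it held as well (-0.39, adjusted p = 0.0071 by edgeR). This row holds 5.41% of the reads of gene and copies. Summed, *Rpl12* ran from 769 through 1081 to 1645 CPM (VEH) and from 794 through 1063 to 1768 CPM (DEX), with a log2 difference of 0.079 ± 0.072 (adjusted p = 0.474 by edgeR). The own row's share was 1.54 percentage points higher in VEH on average, and higher in 8 of 9 leukemias. For *Rpl10a*, a large subunit protein, it was 3.17 points higher and likewise higher in 8 of 9. Its log2 difference was -0.10 on the row and 0.23 summed, and that of *Rpl15* was -0.12 and 0.053. *Rpl5* (-0.027) and *Rpl22l1* (-0.023) were the other members below 0 on the rows. None of these 4 passed on either scale.

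The members with the smallest p among those above 0 were *Rpl28* (0.25 ± 0.09), *Rps14* (0.17 ± 0.07), *Rplp1* (0.18 ± 0.07), *Rps23* (0.15 ± 0.07), *Rpl35* (0.13 ± 0.06) and *Rpl38* (0.16 ± 0.08), with adjusted p-values of 0.0895 to 0.203 on the rows by edgeR. *Rps14* ran from 674 through 798 to 1165 summed CPM in the VEH libraries and from 664 through 938 to 1097 in the DEX libraries, and was higher in DEX in 6 of 9 leukemias. *Rplp1* ran from 496 through 743 to 1099 CPM and from 534 through 720 to 1285 CPM, and was higher in 6 of 9. *Rpl28*, whose row holds 17.3% of its reads, was higher in 8 of 9 leukemias on the row and in 6 of 9 summed.

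The small positive median came from a few leukemias. With copies summed, the members' median DEX minus VEH difference on the log2 scale of TMM-scaled CPM was 0.46 in 73M, 0.30 in JW81 and 0.15 in 8633, with 54, 54 and 55 of 55 members higher. It was between -0.08 and 0.00 in the other 6. The differences of 73M and JW81 were not seen under TPM, where the score on the rows differed by -0.015 in 73M (0.40 under TMM), 0.017 in JW81 (0.32) and 0.067 in 8633 (0.13). The marker scores of other cells also differed between the libraries. In 73M the DEX minus VEH difference was -2.503 for the erythroid, -1.30 for the neutrophil and -0.99 for the B lineage score (769 against 102.1 summed FPKM of erythroid markers in VEH and DEX), in JW81 it was -1.28 for the neutrophil score, and in 8633 that was 0.50. In 73A, where 47 of 55 members were lower (median -0.085), it was -1.17 for the erythroid, -0.62 for the neutrophil and -0.29 for the B lineage score. The DEX libraries of 73M and JW81 were rRNA-carrying, as were 1 library each of 20M, 5C and JW14, whose medians were -0.06, -0.02 and -0.04. The part of these differences in the result was not tested. Without 73M the median over members was 0.03, in the 4 leukemias with no rRNA-carrying library 0.02 and in the other 5 0.12. The medians of genes outside the ribosomal protein family differed by length class, with 0.07 for exon lengths up to 1000 bases (1016 genes), 0.03 for 1000 to 2000, 0.01 for 2000 to 4000 and -0.01 above 4000, and of 0.00 to 0.01 in all 4 classes without the leukemias that had an rRNA-carrying library.

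**Figure D5:**
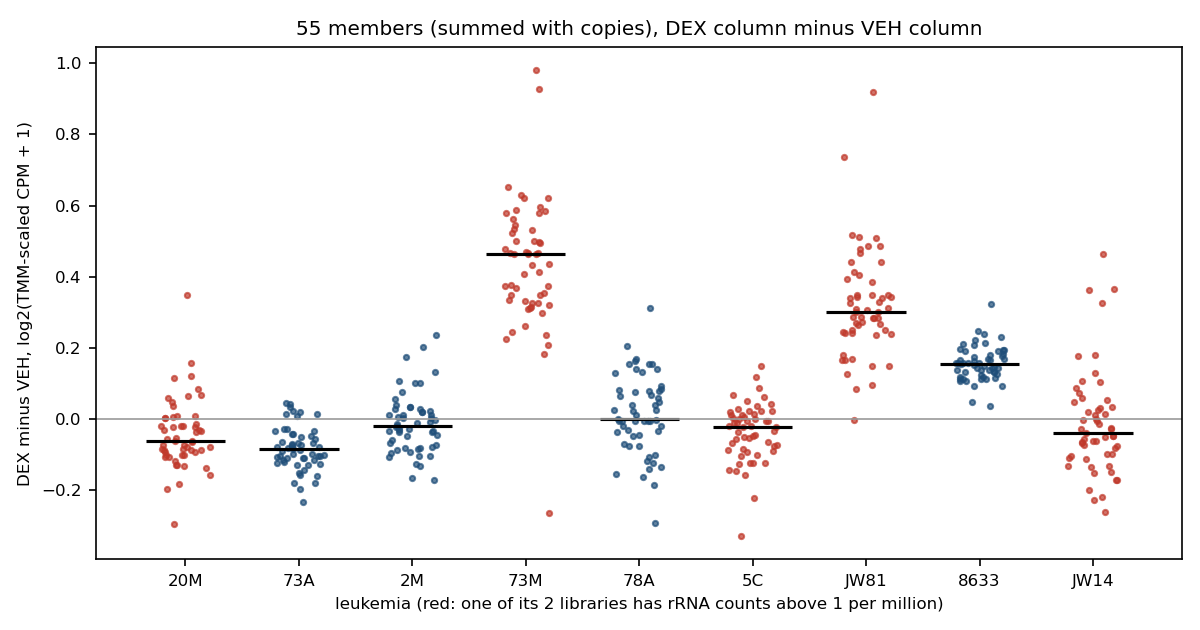
Difference between the DEX and the VEH library of each leukemia (vertical axis, log2(TMM-scaled CPM + 1), copies summed) for the 55 members (points), with the median as a line and red for leukemias with an rRNA-carrying library. The members of 73M, JW81 and 8633 lie above 0 nearly without exception, those of 73A (47 of 55) and 20M (40 of 55) mostly below 0, and those of the other 4 leukemias on both sides of it.

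Other genes of ribosome supply were read from companion lists in the same fit on the rows, in which 6.22% of all genes were higher and 6.79% lower. Of 26 other cytosolic ribosomal protein genes tested, 0 were higher and 1 was lower (*Rpl27a*, -0.20 ± 0.06, adjusted p = 0.0434 by edgeR), with a median of 0.07 as in the members. Of 76 mitochondrial ribosomal protein genes, 2 were higher (*Mrpl58*, 0.37 ± 0.07, and *Mrps18c*, 0.18 ± 0.05) and 2 lower (*Mrps6*, -0.36 ± 0.10, and *Mrpl53*, -0.31 ± 0.08), with a median of 0.02. Of 18 translation factors with TOP messages, 0 were called, with a median of 0.02. Of 16 chaperones and export factors of ribosome assembly, 0 were higher and 2 lower, *Mdn1*, the large ATPase that strips factors from the maturing large subunit (-0.38 ± 0.11), and *Rrs1*, which loads the 5S particle (-0.37 ± 0.11), with a median of -0.06.

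Among 19 regulators of mTORC1 and of TOP messages, 2 were higher and 2 lower, with a median of -0.01. *Ddit4*, an inhibitor of mTORC1 that glucocorticoids are known to induce, rose from a mean of 61.3 to 170 CPM and was higher in 9 of 9 leukemias (1.44 ± 0.19, adjusted p = 0.00174 by edgeR). *Larp4*, a La-related protein that binds poly(A), was lower in 9 of 9 (-0.46 ± 0.08, adjusted p = 0.00589 by edgeR). *Rheb*, the GTPase that activates mTORC1, was lower in 9 of 9 (-0.29 ± 0.07, adjusted p = 0.0218 by edgeR), and *Sesn1*, an inhibitor of the pathway, was higher in 6 of 9 (0.37 ± 0.10, adjusted p = 0.0391 by edgeR). The calls of *Ddit4*, *Larp4* and *Mrpl58* held with a term for rRNA-carrying libraries and without any 1 leukemia, and among the 4 leukemias with no rRNA-carrying library that of *Ddit4* held (adjusted p = 0.0389 by edgeR) while *Larp4* (0.0564) and *Mrpl58* (0.0678) missed. The calls of the other 8 companion genes were lost with the term (adjusted p 0.0546 to 0.172 by edgeR). Message levels say nothing of how strongly TOP messages were translated, which was not measured.

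Between leukemias, 4 of the 5 companion lists were called mostly in the members' direction in JW14 and 20M. In JW14, 25 of 26 other cytosolic genes were higher and 0 lower, of the mitochondrial genes 56 of 76 were higher and 1 lower, of the translation factors 14 of 18 were higher and 0 lower, and of the assembly factors 12 of 16 were higher and 0 lower. In 20M, 25 of 26, 59 of 76, 16 of 18 and 10 of 16 were lower, and 0, 1, 1 and 0 higher. The mTORC1 and TOP regulators did not share this direction, with 5 of 19 higher and 7 lower in JW14 (median -0.23), and 3 higher and 3 lower in 20M (median 0.075). In JW81, in contrast, 38 of 53 members and 21 of 26 other cytosolic genes were higher on the rows, while of the mitochondrial genes 11 were higher and 6 lower (median 0.00), of the translation factors 8 were higher and 2 lower, of the regulators 3 were higher and 2 lower, and of the assembly factors 0 were higher and 2 lower. On the rows, 29.1% of all genes were higher and 26.7% lower in JW14, 25.3% and 22.1% in 20M, and 20.1% and 18% in JW81. Whether the lists differ from the members was not tested.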

How the data were processed

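Bone marrow RNA of transplanted T-ALLs was sequenced from poly(A)-selected, paired-end TruSeq libraries. The authors deposited 1 table of expected counts per gene. The submitters' processing notes name Bowtie2 version 2, RSEM and mm10, and the annotation release and the strand setting are not given in the sources used here. Columns were matched to samples by leukemia and library name. The DEX columns of 2M, 73A and 4638 matched a leukemia but no title, and were used as that leukemia's second library. An S in the column names is unexplained in the sources used here. No column of values was left without a leukemia.

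The design allowed for FPKM, but the deposited values were expected counts, which were rounded to whole numbers for count tests. FPKM were computed from them and the merged exon lengths of GENCODE M21, and a gene entered the tests at a mean of 1 FPKM or more (11339, or 11266 after summing copies). Copies were searched with BLAST+ 2.17.0 (at least 90% identity over at least 60% of the copy). Tests used edgeR 4.0.16 (quasi-likelihood, TMM, Benjamini-Hochberg over all genes, 0.05) in R 4.3.3, with leukemia as a block for DEX minus VEH, since both libraries come from the same leukemia, and with the column letters as a term between leukemias. Standard errors were derived from the F statistic. Correlations used all 362880 pairings of 9 leukemias (Python 3.11.15, scipy 1.17.1, pandas 2.3.3, numpy 2.4.6), and figures matplotlib 3.10.9. DESeq2 1.42.0, other scalings, filters and pseudocounts, an exon length offset, a term for rRNA-carrying libraries and leaving out each leukemia were alternatives. Scripts were tested on simulated data.

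The members and lists were chosen with earlier results of these data known. Named members were up to 6 with the smallest p in each direction, the 5 with the widest range over leukemias, the 3 highest and 3 lowest, the 5 most and the 5 least correlated with *Myc*, those on chromosomes 14 and 15, and those with fixed roles. Of the companion lists, up to 4 genes that passed the test were named. Members listed for a sequence match, for a copy or for a summed range lie outside this rule and were chosen after their values were seen. Summing with copies was added after the data were seen. The genotype of the donor mice is not reported here.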

Additional observations from a re-analysis of the deposited data

Results flagged for a closer look

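One value stood apart from the other leukemias by the size of its gap to the nearest of them. The own row of *Rplp0* held 60.7% of the counts of gene and copies in JW81, where the median of the 9 leukemias was 80.3%, and the gap to the next leukemia took 0.947 of the whole range. Of 62 values looked at in this way about 1 in 20 is marked by chance. Both libraries of JW81 lay low, as the lowest and the highest of the 18 libraries were 60.4% and 81.2%. JW81 was also the leukemia with the lowest share of *Rpl34* on its own row (2.35%), and the cause of either was not tested.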

How the results depend on the processing

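The count of members called between DEX and VEH rested on *Rpl12* and was 0 with the term for rRNA-carrying libraries, in leukemias with an rRNA-carrying library, with the exon length offset and in every fit with copies summed, and 0 to 1 when each leukemia was left out. On the rows the log2 difference of *Rpl12* was -0.36 with the term, -0.25 in leukemias with an rRNA-carrying library and -0.30 with the offset, beside -0.36. It was -0.49 in leukemias with no rRNA-carrying library and -0.39 with no filter on low values, and *Rpl12* was called in both. The score's mean DEX minus VEH difference was -0.032 under TPM and 0.065 under TMM, beside 0.018. The pairing by leukemia carried the comparison: with no replicate block 0 members and 8 of all genes were called, against 1475 with it. Among all genes the term left 465 calls (472 summed), leukemias with no rRNA-carrying library 475 (482 summed), those with one 15 (17 summed), and leaving out a leukemia 676 (without 20M) to 2041 (without 5C). With copies summed, leaving out a leukemia left 685 (without 20M) to 2035 (without 5C) edgeR calls, with 754 without 2M, 772 without 73A and 869 without 73M. DESeq2 called 2169 genes on the rows. Summing turned the log2 difference of *Rpl12* to 0.079, *Rpl15* to 0.053, *Rpl10a* to 0.23 and *Rpl5* to 0.019. *Rpl10a* was 0.052 in leukemias with an rRNA-carrying library. *Rpl5* was 0.024 without the block, 0.085 in those leukemias and 0.031 with the length offset, and *Rpl22l1* was 0.056 with the term, 0.11 in leukemias with no such library and 0.024 with the offset. Leaving out 1 leukemia gave -0.0755 to 0.0072 for *Rpl22l1* and -0.11 to 0.017 for *Rpl5*. The range of the score was 1.10 with the exon length trend removed and 0.801 to 0.932 without each leukemia. Members called with *Myc* were 0 in VEH columns alone, 12 in DEX columns alone, and 0 in 7 leukemias on rows and summed, and r of the score was 0.64, 0.78 and 0.51 in the first 3. Leaving out each leukemia gave r = 0.71 to 0.88, and for *Rpl22* with *Rpl22l1* 0.50 to 0.82. The causes were not tested, except that leaving out leukemias leaves fewer samples. Depth limits little here, since members lay far above 3 counts except *Rps12* and *Rps27* on their rows. Other limits are reads shared with copies, 2 libraries a leukemia, and marrow of mixed cells.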
